A study of Mus musculus with 12 samples.

Results

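The cytosolic ribosomal proteins are the protein parts of the ribosome that works in the cytoplasm. They were taken here by gene symbol: every probe set named by a single symbol of the Rpl, Rps, Rplp or Rpsa pattern, without pseudogenes, kinases or mitochondrial ribosomal proteins, and for each gene the probe set with the highest mean over 12 arrays. This gave 67 genes of 22180 measured: 32 large subunit proteins, 23 small subunit proteins, 3 stalk proteins and 9 genes named as like another member. Of 77 standard symbols of this pattern 58 were measured in this way, and 19 had no probe set of their own, among them Rps2, Rps27a, Rpl10, Rpl13a and Rpl36a. A further 57 probe sets carried such a symbol together with other symbols, and they were counted apart.

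The RNA came from mouse embryonic fibroblasts (MEFs), wild type (WT) or Gdap1-null (KO), collected before reprogramming (day 0) or at day 4 after transduction of Oct4, Sox2, Klf4 and cMyc. Each of the 4 groups had 3 arrays, and all cells were grown in DMEM with FBS. The labels give a mock transduction or a transduction with the factors for the whole series, and do not say whether the day 0 cells were mock-transduced. They also do not say how the null allele was made or whether replicates were separate embryos, so p-values measure the spread between these arrays. Values are log2 levels on Affymetrix arrays, where a difference of 1 is a 2-fold difference.

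A ribosome joins a small subunit, which reads the mRNA, to a large subunit, which forms the peptide bond, and each is built in the nucleolus from rRNA and ribosomal proteins. The mRNAs of nearly all of these proteins start with a run of pyrimidines, the terminal oligopyrimidine (TOP) tract, through which mTORC1 and the protein Larp1 control their translation. Some ribosomal proteins, Rpl5 and Rpl11 among them, also bind Mdm2 and so restrain the loss of p53. Myc, one of the factors transduced, is known as an activator of ribosomal protein and ribosome assembly genes.

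The labelled cell type was checked against its markers. All 12 fibroblast markers were measured above the 25th percentile of all genes (a log2 level of 3.75), and 0 of 7 pluripotency markers, a list without the transduced factors, passed in any comparison. At day 4 in WT 7 of the 12 fibroblast markers fell (58.3%, beside 11.7% of all genes) and 2 rose (16.7%, beside 11.1%), with a median of -0.40. In KO 6 fell (50%, beside 16.9%) and 1 rose (8.33%, beside 13.8%). At day 0, 3 were higher in KO than in WT (25%, beside 2.48%) and 0 lower. Klf4 rose at day 4 in WT by 2.94 ± 0.09 (SE; limma adjusted p = 9.02e-10), while the level read by the Myc probe set fell by 1.02. In KO Klf4 rose by 3.28, Myc fell by 0.94 and Pou5f1, the gene of Oct4, rose by 0.38 (adjusted p = 0.00541). Pou5f1 did not pass in WT (0.10, adjusted p = 0.516). Sox2 passed in neither genotype, with 0.19 in WT (adjusted p = 0.338) and -0.10 in KO (adjusted p = 0.599). The Gdap1 probe set lay at 3.04 to 3.30 in WT and 2.97 to 3.28 in KO at day 0, below that percentile and overlapping, so it did not check the genotype labels. The lowest mean correlation of an array with its own group was 0.987, in WT day 4 replicate 1. Gene levels of a bulk sample cannot separate fewer cells of a type from less RNA per cell.

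The starts of the genes are shown first, because the TOP tract is the feature that these mRNAs are known to share. RefSeq windows from 250 bases before to 50 after an annotated start (build GRCm38.p6) were found for 52 of the 67 genes, 61 windows in all. Below, the 20 bases before and the 20 bases from the start are printed 5′ to 3′ on the gene's strand, and capitals mark the pyrimidine tract: a C within 5 bases of the start that is followed by at least 4 C or T. The windows were chosen to show the tract, and they do not show a link with the change at day 4. Of the 15 genes with a window that rose at day 4 in WT 6 had a tract and 9 did not, and of the 37 others 16 had one. The first 5 below are genes that rose in WT and have a tract. Of the rest, Rpl35, Rplp2 and Rpl39l did not pass the test of a change at day 4, Rps27l fell and Rpl22l1 rose in KO, and Rpl4 rose in both genotypes with no tract at its annotated start. Rps24 and Rps27l have another annotated start each, without a tract, which is printed after the first.
Rpl27a, chr7:109519175-109519214, plus strand: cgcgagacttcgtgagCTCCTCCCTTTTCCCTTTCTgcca
Rpl14, chr9:120571497-120571536, plus strand: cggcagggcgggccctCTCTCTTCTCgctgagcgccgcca
Rps24, chr14:24490658-24490697, plus strand: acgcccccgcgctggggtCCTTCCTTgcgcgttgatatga
Rps24, other start, chr14:24490733-24490772, plus strand: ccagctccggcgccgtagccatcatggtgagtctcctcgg
Rps9, chr7:3704021-3704060, plus strand: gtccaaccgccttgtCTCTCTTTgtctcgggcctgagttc
Rpl7a, chr2:26910787-26910826, plus strand: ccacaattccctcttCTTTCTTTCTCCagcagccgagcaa
Rpl35, chr2:39005112-39005151, minus strand: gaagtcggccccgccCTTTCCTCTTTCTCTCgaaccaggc
Rplp2, chr7:141447631-141447670, plus strand: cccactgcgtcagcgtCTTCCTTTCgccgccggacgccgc
Rps27l, chr9:66946066-66946105, plus strand: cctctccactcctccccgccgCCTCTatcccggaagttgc
Rps27l, other start, chr9:66946393-66946432, plus strand: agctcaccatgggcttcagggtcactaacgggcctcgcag
Rpl22l1, chr3:28805488-28805527, plus strand: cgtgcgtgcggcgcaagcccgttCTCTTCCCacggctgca
Rpl4, chr9:64173367-64173406, plus strand: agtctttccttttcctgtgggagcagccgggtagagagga
Rpl39l, chr16:10170208-10170247, plus strand: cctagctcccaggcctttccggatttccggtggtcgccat

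A tract by this definition lay at the start of 24 of the 61 windows (39.3%), against 6027 of all 32851 windows in the RefSeq table (18.3%). Counted from that C, it ran from 5 bases in Rps27l to 20 in Rpl27a in the printed windows. Pyrimidines before that C, as in Rpl7a, were not counted, and neither was the run in Rpl4 that ends before the start. The letters CCGGAAG, a site of the factor GABP, were found on either strand in 23 of 61 windows (37.7%), against 8.86% of all windows. GGGCGG, a site of Sp1, was in 50.8% against 35.7%. AAGATGG, part of a YY1 site, was in 11.5% against 6.34%, and TATAAA, the TATA box, in 9.84% against 13.6%. These are matches of letters in windows placed by the annotation, and binding was not measured.

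At day 4 of reprogramming 21 of the 67 ribosomal protein mRNAs rose in WT cells, by small amounts, and 46 did not pass the test. The 21 made 31.3%, against a background of 11.1% of all genes, and 0 fell (background 11.7%), by limma's test with an adjusted p under 0.05 over all genes. The median difference was 0.16, against -0.01 over all genes, and 53 of the 67 had a positive sign. All 3 day 4 arrays lay above all 3 day 0 arrays for 42 genes (background 17.4%) and below them for 4 (background 18.9%). The largest of the rises was 1.44-fold. The count rested on several arrays: it was 13 without WT day 0 replicate 1, 7 without WT day 0 replicate 2, 11 without WT day 4 replicate 1 and 9 without WT day 4 replicate 3. Those counts were 19.4%, 10.4%, 16.4% and 13.4% of the members, beside 8.58%, 8.62%, 11.9% and 9.17% of all genes. Without WT day 0 replicate 2 the members' share was thus near that of all genes. Without WT day 4 replicate 1 the share of all genes rose a little while that of the members fell. The count was 10 (14.9%, beside 8.92% of all genes) after centring each array on its median. The medians over all genes lay at 5.22 to 5.26 on the day 0 arrays of both genotypes and at 5.28 to 5.32 on the day 4 arrays.

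**Figure D1:**
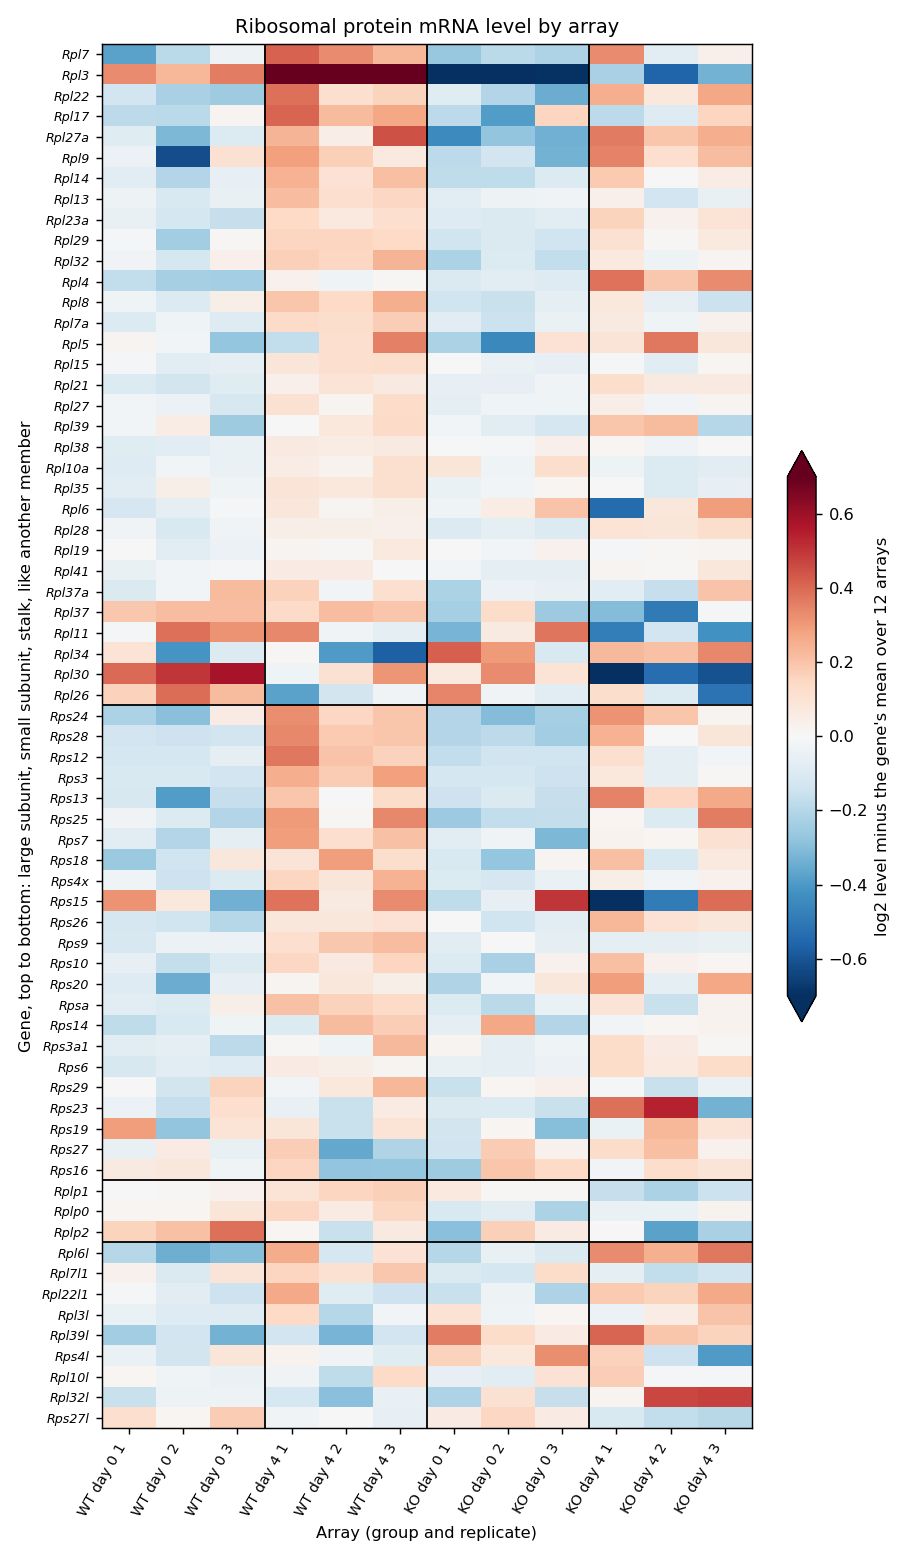
Heat map of the 67 ribosomal protein genes (rows, by class and then by the WT difference) on the 12 arrays (columns); colour is the log2 level minus the gene's mean over the 12 arrays, and colours beyond 0.7 are saturated. Most genes of both subunits are redder on the 3 WT day 4 arrays than on the WT day 0 arrays, and Rpl3 separates WT from KO arrays.

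Most of the rises, 17 of 21, were read by bright probe sets. Of the 36 members with a mean level of 8 or more, 17 rose in WT (47.2%) and 0 fell, against 16.2% and 26% of the 3559 genes of that level, whose median difference was -0.05. Among these 36 the median was 0.22 and 34 had a positive sign. Of the 31 members under that level 4 rose (12.9%, near the 11.1% of all genes). The level of 8 was chosen after the values were seen, and the brightness of different probe sets does not order their mRNAs by amount.

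**Figure D2:**
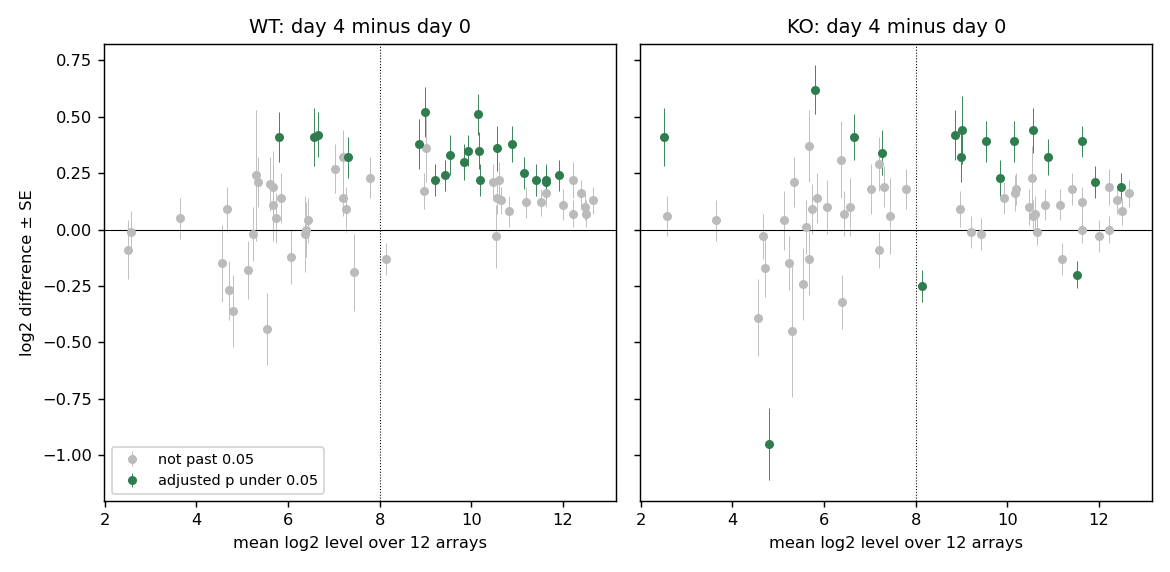
Log2 difference of day 4 minus day 0 (± SE, 3 arrays per group) against the mean log2 level of each of the 67 genes, for WT and KO; green points passed an adjusted p of 0.05 and the dotted line marks a level of 8. In WT 17 of the 36 genes right of the line and 4 of the 31 left of it passed, all above 0.

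Among the large subunit proteins 11 of 32 rose in WT (34.4%, background 11.1%). Rpl7 lay at 8.62, 8.81 and 8.96 at day 0 and at 9.41, 9.33 and 9.23 at day 4 in WT, a difference of 0.52 ± 0.11 (adjusted p = 0.00426). Rpl3, a protein close to the peptidyl transferase centre, rose from 10.48, 10.38 and 10.51 to 11.03, 10.90 and 10.98, by 0.51 ± 0.09 (adjusted p = 0.00134). The day 0 and day 4 arrays of both genes did not overlap. The other 2 probe sets of Rpl3 differed by 0.12 and -0.09, and with the average of its probe sets the Rpl3 difference was 0.18 (adjusted p = 0.178; 0.000155 to 0.178 over all alternatives). The second probe set of Rpl7 had the opposite sign, and with their average the Rpl7 difference was 0.26 (adjusted p = 0.0739; 0.00118 to 0.0739 over all alternatives).

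Rpl22, an RNA-binding protein of the large subunit that is known for its role in T cell development, was at 6.52, 6.43 and 6.41 at day 0 and at 7.04, 6.77 and 6.81 at day 4. It rose by 0.42 ± 0.10 (adjusted p = 0.00658). Rpl27a was at 5.73, 5.5 and 5.72 at day 0 and at 6.05, 5.86 and 6.26 at day 4, a rise of 0.41 ± 0.11 (adjusted p = 0.0142). No array of one day reached into the other for either gene. Rpl17 rose by the same amount, a call lost in 6 of 12 fits without 1 array and 4 of 9 other alternatives (adjusted p up to 0.119). The Rpl27a call was lost in 2 of 12 and 1 of 9 of these. Rpl14, Rpl13, Rpl23a, Rpl32, Rpl4 and Rpl7a rose by 0.21 to 0.30. Rpl28, Rpl41, Rpl21, Rpl29 and Rpl19 had mean levels of 12.21 to 12.51, among the highest of the members. By their brightest probe sets they differed by 0.07 to 0.22 and none passed, although in each the day 4 arrays lay above those of day 0. The second probe set of Rpl29, at 10.11 to 10.28 in WT at day 0, rose by 0.37 in WT (adjusted p = 0.00265). It rose by 0.29 in KO (adjusted p = 0.00978) and was lower in KO at day 4 by -0.26 (adjusted p = 0.0251). The table's highest value was 13.35.

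Among the small subunit proteins 9 of 23 rose in WT (39.1%, background 11.1%). Rps28 was at 10.75, 10.74 and 10.75 at day 0 and at 11.22, 11.07 and 11.08 at day 4, a rise of 0.38 ± 0.08 (adjusted p = 0.00345). Rps3, which lies at the entry of the mRNA channel, rose from 9.83, 9.83 and 9.80 to 10.19, 10.11 and 10.22, by 0.35 ± 0.07 (adjusted p = 0.00199). In both genes the day 0 arrays lay within 0.03 of each other. Rps12 rose by 0.35 ± 0.08 (adjusted p = 0.00524), and all 8 of its probe sets passed in the same direction. Those 8 are not independent, since 7 of the members' 108 probe sets hold exactly the values of another.

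Rps24, whose human counterpart is mutated in Diamond-Blackfan anaemia, was at 8.63, 8.56 and 8.91 at day 0 and at 9.18, 9.0 and 9.05 at day 4. It rose by 0.38 ± 0.11 (adjusted p = 0.0203). Rps13, Rps7, Rps4x, Rps26 and Rps9 rose by 0.24 to 0.33. Rps6, the substrate of the S6 kinases that act below mTORC1, was at 12.55 to 12.58 at day 0 and 12.68 to 12.72 at day 4 without overlap, a difference of 0.13 that did not pass (adjusted p = 0.177). Rpsa, also known as a laminin receptor, differed by 0.21 ± 0.08 (adjusted p = 0.0934).

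The stalk of the large subunit, which recruits the elongation factors, is formed by Rplp0 at its base and by Rplp1 and Rplp2. None of the 3 passed the test in WT at day 4. Rplp1 was at 11.52, 11.53 and 11.55 at day 0 and at 11.62, 11.67 and 11.69 at day 4, a difference of 0.12 ± 0.06 (adjusted p = 0.207) without overlap. Rplp0 differed by 0.08 ± 0.07 and Rplp2 by -0.27 ± 0.13, the latter from a probe set of mean level 4.72.

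In KO cells 15 of the 67 genes rose at day 4 (22.4%, background 13.8%) and 3 fell (4.48%, background 16.9%), with a median of 0.11 against -0.01 over all genes. The groups did not overlap for 28 genes upward (background 20.5%) and 4 downward (background 24.8%). Of the 36 members with a level of 8 or more, 11 rose (30.6%) and 2 fell (5.56%), against 17.6% and 35.2% of all genes of that level. The median difference of all 3559 genes of that level was -0.12, and that of the 36 members 0.13. The count of rises was 9 without KO day 0 replicate 1 and 9 without KO day 0 replicate 3. Each was 13.4% of the members, near the 11.1% and 11.3% of all genes in these fits. The count of falls was 1 without KO day 0 replicate 2 (1.49%, beside 14.0% of all genes). With arrays centred on their medians the members' median was 0.05.

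Of the 21 genes that rose in WT, 11 rose in KO (52.4% of the WT list and 73.3% of the KO list): Rpl3, Rpl4, Rpl6l, Rpl7, Rpl14, Rpl22, Rpl27a, Rps13, Rps24, Rps26 and Rps28. Over all genes 1648 of the 2469 that rose in WT also rose in KO (66.7% of the WT list and 53.7% of the KO list). These 2 comparisons share no arrays. Of the Rpl3 probe sets the brightest rose in KO, while the others differed by -0.15 and, past the threshold, -0.55 (adjusted p = 0.0127). Rpl27a was at 5.37, 5.54 and 5.48 at day 0 in KO and at 6.18, 6.01 and 6.07 at day 4, a rise of 0.62 ± 0.11 or 1.54-fold (adjusted p = 0.000671). It was the largest rise of any member in the 2 day comparisons. Rpl4, which lines the exit tunnel of the nascent chain, went from 11.54, 11.56 and 11.55 to 12.02, 11.83 and 11.97, a rise of 0.39 ± 0.07 (adjusted p = 0.000993), and its second probe set rose by 0.70.

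Rpl22 rose by 0.41 ± 0.10 (adjusted p = 0.00553), an amount close to that in WT. Rps24 rose by 0.42 ± 0.11 and Rps13 by 0.39 ± 0.09, while Rpl9 rose by 0.44 ± 0.15 (adjusted p = 0.0438) and Rpl28 by 0.19 ± 0.06 (adjusted p = 0.0406). The Rpl9 call was lost in 8 of 12 fits without 1 array (adjusted p up to 0.14) and was 0.27 (adjusted p = 0.0645) with averaged probe sets. Rpl9 had differed by 0.36 in WT, where replicate 2 of day 0 at 8.40 lay apart from 8.98 and 9.13. Rps3 and Rps12, which rose in WT, differed in KO by 0.14 (adjusted p = 0.15) and 0.16 (adjusted p = 0.14), again without overlap. Rps9 lay between 9.36 and 9.43 on all 6 KO arrays.

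**Figure D3:**
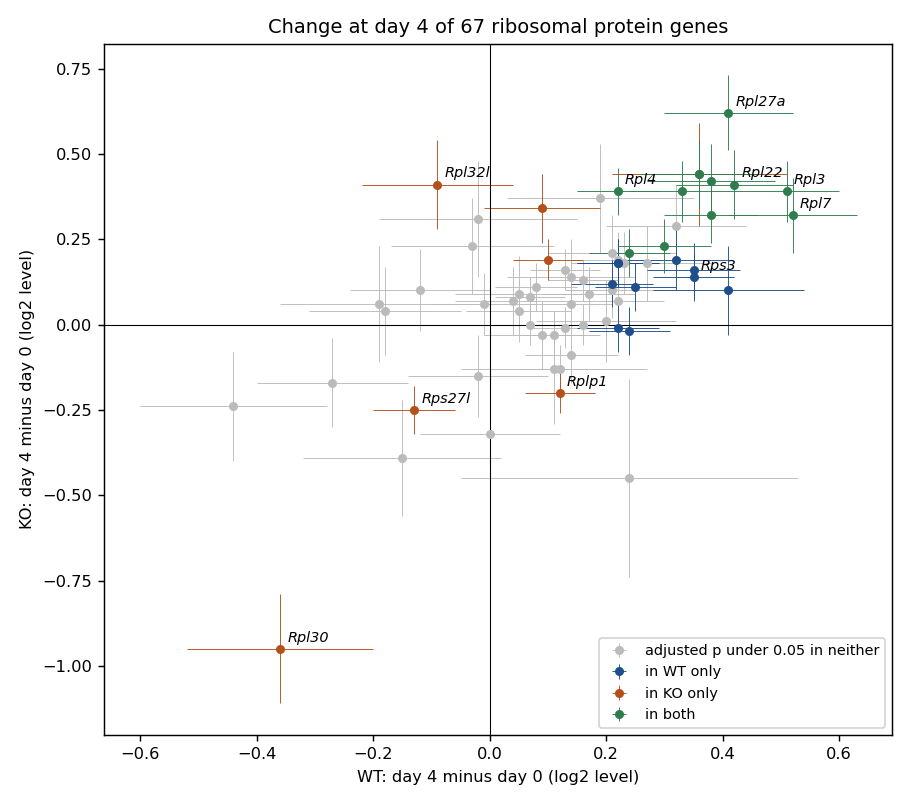
Log2 difference of day 4 minus day 0 in WT (x axis) and in KO (y axis) for the 67 genes, with SE bars; colours give the genotypes in which the gene passed an adjusted p of 0.05. The 11 genes that passed in both lie in the upper right, and Rpl30 lies alone at -0.36 in WT and -0.95 in KO.

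In KO 3 genes fell at day 4, and Rpl30 fell most. It was at 4.88, 5.14 and 4.91 at day 0 and at 3.60, 4.28 and 4.20 at day 4, a fall of 0.95 ± 0.16 on the log2 scale, or 1.93-fold (adjusted p = 0.000496). In WT it differed by -0.36 ± 0.16 without overlap (adjusted p = 0.128). Its probe set had a mean of 4.81, below that of the median gene. Rps27l, a p53 target related to Rps27, fell by 0.25 ± 0.07 (adjusted p = 0.0183), and Rplp1 fell from 11.59, 11.53 and 11.53 to 11.36, 11.30 and 11.37, by 0.20 ± 0.06 (adjusted p = 0.0283). The Rplp1 call was lost in 5 of 12 fits that left out 1 array and in 4 of 9 other alternatives, with -0.09 (adjusted p = 0.467) for the average of its probe sets.

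The direct test of whether the day 4 change differed between KO and WT was passed by 0 of the 67 genes in either direction (background 2.15% higher and 1.81% lower), by limma with an adjusted p under 0.05. At an unadjusted p under 0.05 there were 7 (background 19.1%). The smallest p belonged to Rplp1, with a difference of -0.33 ± 0.09 (adjusted p = 0.0635), followed by Rpl32l with 0.50 and Rps9 with -0.26 (adjusted p = 0.148 for each). Over the alternatives the adjusted p of Rplp1 ran from 0.00574, with a trended robust prior, to 0.736, with the average of its probe sets (-0.09). It passed in 4 of them, among them the fit without WT day 4 replicate 1 (0.0391), and its second probe set differed by 0.15 (adjusted p = 0.689). The values of all 67 ran from -0.70 to 0.50 with a median of -0.04.

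Before reprogramming KO and WT cells differed in 2 of the 67 genes: 1 was higher in KO (1.49%, background 2.48%) and 1 lower (1.49%, background 3.12%). The median difference was -0.02. The groups did not overlap for 7 genes upward (background 13.1%) and 6 downward (background 16.4%). The gene lower in KO was Rpl3, at 9.29, 9.43 and 9.46 in KO against 10.48, 10.38 and 10.51 in WT. The difference was -1.07 ± 0.09, a level 2.09-fold lower (adjusted p = 2.73e-05), and the gap between the groups was many times their spread. At day 4 Rpl3 was at 9.92, 9.59 and 9.82 in KO against 11.03, 10.90 and 10.98 in WT, a difference of -1.19 ± 0.09 or 2.28-fold (adjusted p = 9.87e-06).

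The lower level of Rpl3 came from 1 of its 3 probe sets. The second read 8.47 to 8.56 in KO and 7.98 to 8.29 in WT at day 0, a difference of 0.37 in the other direction (adjusted p = 0.0596), and 0.10 at day 4. The dimmest, at 3.47 to 4.25 on all arrays, differed by 0.42 at day 0 (adjusted p = 0.148) and -0.04 at day 4. With the average of the probe sets the day 0 difference was -0.09 (adjusted p = 0.693; 1.02e-06 to 0.693 over all alternatives) and that of day 4 was -0.37 (adjusted p = 0.0097). Of the 8 measured genes nearest to Rpl3 by the RefSeq order, 0 differed at day 0 and 2 at day 4. For Rpl39l these counts were 1 and 4 of 8, and for Rpl30 they were 2 and 3 of 8. Over all genes 2.48% were higher and 3.12% lower in KO at day 0, and 8.34% and 12.4% at day 4.

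The gene higher in KO was Rpl39l, a copy of Rpl39 known for its expression in the testis. It was at 6.80, 6.57 and 6.50 in KO and 6.2, 6.31 and 6.11 in WT at day 0, a difference of 0.41 ± 0.10 (adjusted p = 0.0329). The call was lost without WT day 0 replicate 1, WT day 0 replicate 3, KO day 0 replicate 1 or KO day 0 replicate 2 (adjusted p of 0.0732 to 0.148). At day 4 it was at 6.85, 6.64 and 6.60 against 6.31, 6.12 and 6.31, a difference of 0.45 ± 0.10 (adjusted p = 0.00878), and this call held with any single array left out. KO arrays lay above WT arrays at both days. Rpl39 itself, an X-linked gene, differed by 0.00 at both days. Over the 12 arrays Lrrc8d had the profile most like that of Rpl39l (Pearson r = 0.942), followed by 4930471L23Rik and Bend6. These r values were the highest of all genes by choice, and the points share their groups.

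**Figure D4:**
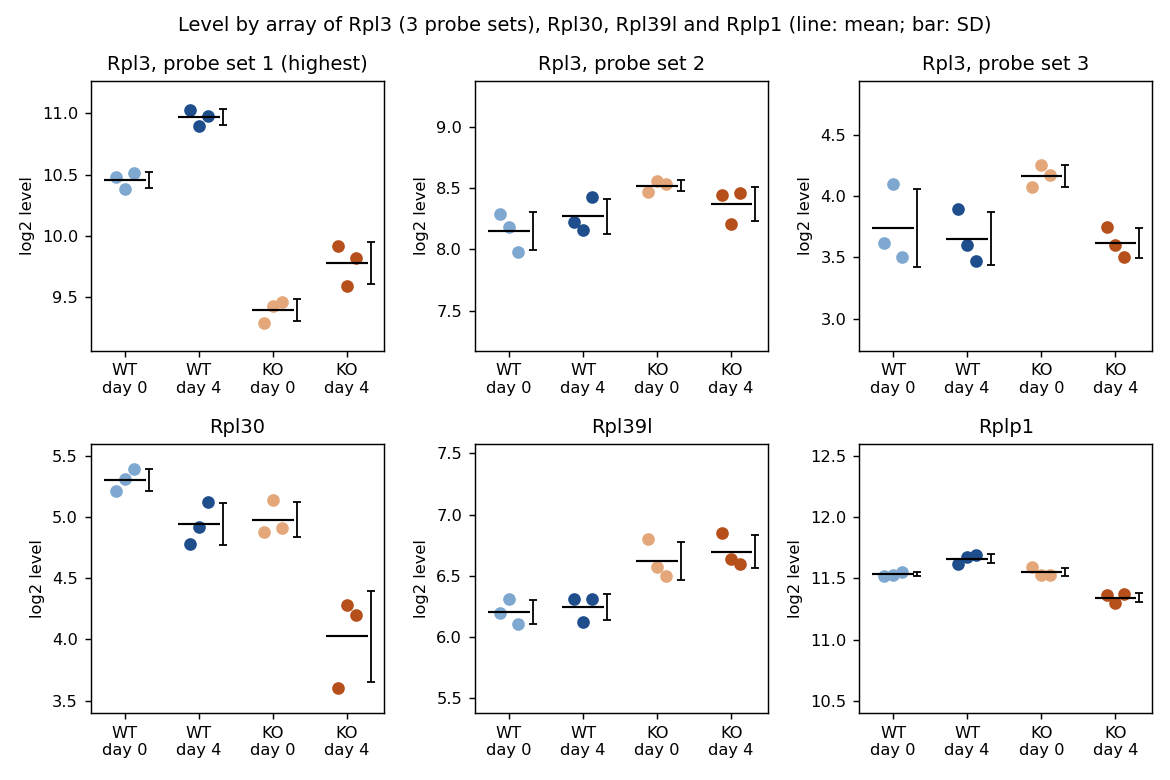
Log2 level on each array (points) of the 3 probe sets of Rpl3 and of Rpl30, Rpl39l and Rplp1 in the 4 groups; lines are means, bars beside them the SD of 3 arrays, and every panel spans the same range. The first Rpl3 probe set is lower in KO at both days and the other 2 are not, while Rpl30 and Rplp1 stand lower on the 3 KO day 4 arrays.

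At day 4 there were 4 members higher in KO than in WT (5.97%, background 8.34%) and 8 lower (11.9%, background 12.4%), shares near the background. The groups did not overlap for 6 genes upward (background 14.3%) and 24 downward (background 17.3%), and the median was -0.09 against 0.00 over all genes. Of the 36 brighter members 5 were lower (13.9%), against 23.3% of all genes of that level. The higher count was 7 without WT day 4 replicate 1, 2 without WT day 4 replicate 2 and 2 without KO day 4 replicate 2. Those counts were 10.4%, 2.99% and 2.99% of the members, beside 10.8%, 6.0% and 7.29% of all genes. The lower count was 4 without WT day 4 replicate 2, 3 without WT day 4 replicate 3, 4 without KO day 4 replicate 2 and 5 without KO day 4 replicate 3. These made 5.97%, 4.48%, 5.97% and 7.46% of the members, beside 8.99%, 8.04%, 10.8% and 9.85% of all genes. Beside Rpl3, the lower genes were Rpl30, Rpl37, Rplp1, Rpl7l1, Rpl8, Rps9 and Rps3. Rps12 lay just outside the threshold, with -0.23 ± 0.08 (adjusted p = 0.0509) and no overlap. When all single-symbol probe sets were tested, 7 of its 8 passed as lower. The comparison of KO with WT at day 4 and the WT day comparison share the WT day 4 arrays.

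Rpl30 was 1.89-fold lower in KO at day 4, with -0.91 ± 0.16 (adjusted p = 0.00165), and its highest KO array at 4.28 lay below the lowest WT array at 4.78. Rpl37 was at 4.93, 4.74 and 5.22 in KO against 5.37, 5.45 and 5.43 in WT, lower by -0.46 ± 0.12 (adjusted p = 0.0189). Rplp1 was lower by -0.31 ± 0.06 (adjusted p = 0.00483). Its second probe set, at 4.70 to 5.06 on all arrays, differed by 0.11 (adjusted p = 0.548), and with the average of both the call was lost (adjusted p = 0.422). The remaining 4 differed by -0.27 to -0.23: Rpl7l1, a nucleolar relative of Rpl7, Rpl8, Rps9 and Rps3. Of the 12 fits that left out 1 array, 11 lost the call of Rpl8, 7 that of Rpl7l1, 4 that of Rps9 and 3 that of Rps3. The Rpl37 call was lost in 4.

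Of the members higher in KO at day 4, Rpl34 was at 7.65, 7.63 and 7.76 against 7.43, 7.03 and 6.85, a difference of 0.58 ± 0.17 (adjusted p = 0.0283), a call lost in 5 of 12 fits without 1 array (adjusted p up to 0.121). Rpl4 was at 12.02, 11.83 and 11.97 against 11.67, 11.61 and 11.65, a difference of 0.29 ± 0.07 (adjusted p = 0.0111). Rpl32l differed by 0.47 ± 0.13 (adjusted p = 0.0195), but its probe set lay between 2.21 and 2.98 on all arrays, under the 25th percentile of all genes. Rpl4 kept the same direction in its second probe set, with 0.44 (adjusted p = 0.0607).

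The like genes are given here beside their parents. Rpl22 rose at day 4 in both genotypes, while Rpl22l1, its paralog, differed by 0.09 ± 0.10 in WT (adjusted p = 0.619) and rose in KO from 7.11, 7.23 and 7.05 to 7.45, 7.42 and 7.53, by 0.34 ± 0.10 (adjusted p = 0.0222). The difference between those 2 changes of Rpl22l1 did not pass (0.25, adjusted p = 0.385). Rps27 differed by -0.12 and 0.10 at day 4 in WT and KO, where Rps27l differed by -0.13 and fell by 0.25. Rps4x, the X-linked form, rose by 0.25 in WT, and Rps4l differed by 0.00 in WT and -0.32 in KO (adjusted p = 0.0678). Whether a paralog changed otherwise than its parent was not tested.

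Rpl6l, read by a bright probe set of mean level 10.57, rose by 0.36 ± 0.10 in WT (adjusted p = 0.015) and by 0.44 ± 0.10 in KO (adjusted p = 0.0036). The WT call was lost in 2 of 12 fits without 1 array and in 1 of 9 other alternatives. Rpl6 was read at a mean level of 5.67 and differed by 0.11 in WT (adjusted p = 0.705) and -0.13 in KO (adjusted p = 0.589). Whether the Rpl6l probe set also reads Rpl6 mRNA was not tested. Rpl3l, a form known from heart and skeletal muscle, lay at 3.44 to 3.84 on all arrays, and Rpl10l, known from the testis, at 2.40 to 2.75. Both were under the 25th percentile of all genes, as was Rpl32l. The genes most like Rps4l over the 12 arrays were Cdkn1a (r = 0.958), a cell cycle inhibitor, Catsperb (0.904) and Olfr432 (0.899). Those most like Rpl22l1 were Rgs11 (r = 0.932), A2m (0.918) and Gpr35 (0.915). As for Rpl39l, these r values were the highest of all genes by choice, and the points share their groups. A link between these genes was not tested.

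Rpl5 and Rpl11, the members that bind Mdm2, passed in no comparison, and their probe sets were dim. Rpl5 at a mean level of 5.67 differed by 0.19 ± 0.16 in WT and 0.37 ± 0.16 in KO at day 4, and Rpl11 at 4.56 by -0.15 ± 0.17 and -0.39 ± 0.17. Rps15 spread most, with 4.31, 4.82 and 5.70 on the 3 KO day 4 arrays. The members' median SD within a group was 0.07 to 0.09, against 0.0858 to 0.127 over all genes. Where a gene had several probe sets these did not always move together. Rpl21 read 12.28 to 12.53 in its first probe set and 12.17 to 12.41 in its second, which rose by 0.19 in KO at day 4, while the dimmest, at 5.66 to 7.08, fell by 0.57. In Rps24 the brightest and the dimmest probe sets rose in KO and the one between them differed by 0.08.

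The 57 probe sets that list such a symbol together with others, left out above because they cannot be given to a single gene, were tested in the same way. At day 4 in WT 15 were higher (26.3%, beside 11% of all 25335 probe sets with a symbol) and 0 lower (11.4%), with a median of 0.17. In KO 16 were higher (28.1%, beside 13.7%) and 7 lower (12.3%, beside 16.4%). KO against WT gave 0 higher and 1 lower at day 0, and 3 higher (5.26%, beside 8.26%) and 12 lower (21.1%, beside 12%) at day 4.

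Other parts of the translation machinery were set beside the ribosomal proteins. Over all genes 11.1% rose and 11.7% fell at day 4 in WT, and 13.8% rose and 16.9% fell in KO. Of 15 further mRNAs known to carry a TOP tract, 6 rose (40%) and 0 fell in WT at day 4. In KO 7 of these mRNAs rose (46.7%) and 2 fell (13.3%). They included Eif4b, the activator of the helicase Eif4a, which rose by 0.53 ± 0.09 in WT (adjusted p = 0.000863), and Npm1, a nucleolar chaperone, which rose by 0.42 ± 0.09 in WT and 0.56 ± 0.09 in KO. Eif3e and Eif3f, subunits of the initiation factor that binds the small subunit, rose by 0.29 and 0.32 in WT and by 0.49 and 0.34 in KO. Of 6 elongation factors 1 rose in WT (16.7%), Eef1a1 with 0.23, and in KO 1 rose (16.7%) and 2 fell (33.3%). Fau, the precursor of a small subunit protein whose symbol is outside the pattern, differed by 0.20 in WT (adjusted p = 0.0769).

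The 42 genes of ribosome assembly and rRNA processing gave other counts than the ribosomal proteins at day 4 in KO. In WT 8 of them rose (19%, background 11.1%) and 4 fell (9.52%, background 11.7%), with a median of 0.15. In KO 3 rose (7.14%, background 13.8%) and 20 fell (47.6%, background 16.9%), with a median of -0.25, where 15 ribosomal proteins rose and 3 fell. Against WT at day 4, 30 of the 42 were lower in KO (71.4%, background 12.4%) and 0 higher (background 8.34%). The median was -0.45, beside 11.9% lower and a median of -0.09 for the ribosomal proteins. Of the 3559 genes with a level of 8 or more, 35.2% fell in KO and 23.3% were lower in KO than in WT at day 4. The day 4 change itself differed between the genotypes for 7 of the 42, all lower in KO (16.7%, background 1.81%), and for 0 of the 67 ribosomal proteins. At day 0 a single assembly gene passed as lower in KO (2.38%, background 3.12%). The median was -0.10, and the arrays did not overlap downward for 20 of the 42 (background 16.4%).

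Bop1, needed for processing of the large subunit rRNA, was at 7.92 to 8.02 in WT and 7.13 to 7.19 in KO at day 4, lower by -0.80 ± 0.07 (adjusted p = 3.69e-05). Ubtf, a factor of RNA polymerase I, was lower by -0.80 ± 0.09, Nop56, a core protein of the C/D box snoRNPs, by -0.89 ± 0.10, and Nhp2, a core protein of the H/ACA snoRNPs, by -0.63 ± 0.07. For these 4 genes the KO arrays of day 4 did not overlap those of WT, and the change at day 4 differed between the genotypes (adjusted p of 0.00351 to 0.0174). Among 71 mitochondrial ribosomal proteins, which serve the ribosome inside mitochondria, 1 was higher (1.41%) and 31 lower (43.7%) in KO at day 4, with a median of -0.23. Of 21 initiation factors 10 were lower (47.6%) and 1 higher (4.76%). Of 38 proteasome subunits, taken as another set of large-complex genes, 11 were lower (28.9%) and 1 higher (2.63%). Over all genes 12.4% were lower and 8.34% higher, and of the 3559 genes with a level of 8 or more 23.3% were lower. The lists were not matched to genes of like level.

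**Figure D5:**
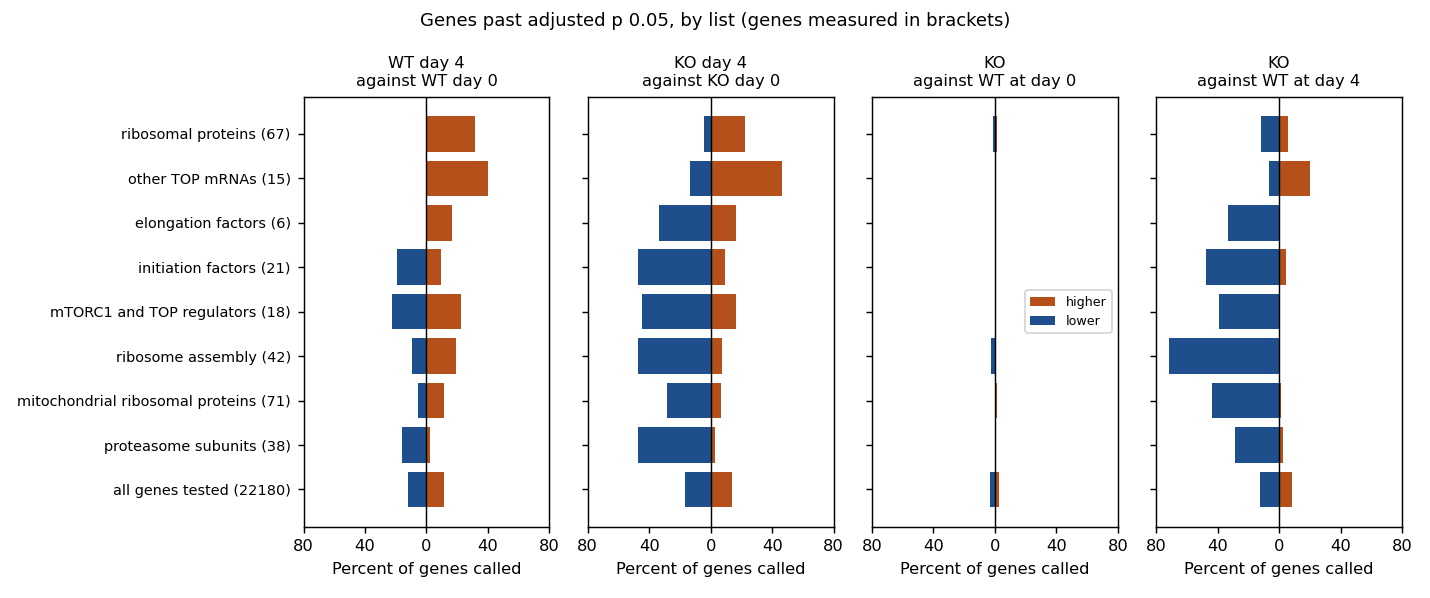
Percent of the genes of each list with an adjusted p under 0.05, higher to the right and lower to the left of 0, in the 4 comparisons; the last bar is all 22180 genes. The ribosomal proteins and the other TOP mRNAs lean higher at day 4 in both genotypes, and the ribosome assembly genes reach 71.4% lower in KO against WT at day 4.

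Of 18 regulators of mTORC1 and of TOP mRNAs, 4 rose (22.2%, background 11.1%) and 4 fell (22.2%, background 11.7%) in WT at day 4. In KO 3 rose (16.7%, background 13.8%) and 8 fell (44.4%, background 16.9%). Of the genes with a level of 8 or more 26% fell in WT and 35.2% in KO. Larp1, which binds TOP mRNAs, was lower in KO than in WT at day 4 by -0.48 ± 0.08 (adjusted p = 0.00173). Sesn2, an inhibitor of mTORC1, fell by 0.91 ± 0.11 in WT and by 1.38 ± 0.11 in KO, and Deptor, another inhibitor, rose by 1.02 ± 0.11 and 1.21 ± 0.11. Translation was not measured. Of 10 genes around Mdm2 and p53, 2 rose (20%) and 5 fell (50%) at day 4 in each genotype, beside the same backgrounds.

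Some markers of other cells differed between the genotypes, and others changed with the day. Of 7 macrophage markers 6 were lower in KO at both days (85.7%, background 3.12% at day 0 and 12.4% at day 4), with medians of -1.50 and -1.63. Their summed linear level was 1280 to 1360 in WT and 422 to 450 in KO at day 0. At day 4 it was 1370 to 2550 in WT and 491 to 515 in KO. None of the 7 lay under the 25th percentile by its mean. Of 4 keratinocyte markers 3 rose at day 4 in both genotypes (75%, background 11.1% in WT and 13.8% in KO). Their summed levels were 82.2 to 89.1 before and 177 to 200 after in WT. Between KO and WT 0 of the 4 differed at day 0, and 1 was lower in KO at day 4 (25%, background 12.4%). Of 4 sex markers 1 was higher and 1 lower in KO at day 0 (25% each, background 2.48% and 3.12%). At day 4, 1 was higher (25%, background 8.34%) and 2 lower (50%, background 12.4%), the lowest by -0.56. Xist was higher in KO by 0.42 and 0.46 at the 2 days, and the Y-linked Uty lower by -0.34 and -0.38. With the day 2 of the 4 rose in WT (50%, background 11.1%) and 1 in KO (25%, background 13.8%). Of 5 endothelial markers 2 fell at day 4 in both genotypes (40%, background 11.7% in WT and 16.9% in KO). Between KO and WT 1 of the 5 was lower in KO at day 0 (20%, background 3.12%), and 0 differed at day 4. The part of these in the results on ribosomal proteins was not tested.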

How the data were processed

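Levels were read from the deposited log2 values of 12 one-colour Affymetrix whole-transcript arrays, made by the authors with Affymetrix Expression Console, per the submitters' processing notes. The version, the background step and the summary step were not given in the sources used here, and no further normalization was applied. Of 41345 probe sets, 23521 had a single symbol in the platform annotation; the brightest per gene gave 22180 genes. Limma 3.58.1 in R 4.3.3 fitted 4 group means to all 12 arrays (8 residual and 4.56 prior degrees of freedom). Its two-sided moderated test was used in 5 comparisons, with Benjamini-Hochberg adjustment over all genes and a threshold of 0.05. No level filter was applied. Errors of differences are standard errors, with n = 3 arrays per group, a number that limits the precision. The script was tested on simulated data. The genes named were the 8 largest rises and falls among those past the threshold, paralogs and parents, stalk genes, the brightest and dimmest members, and members with several probe sets. Members and lists were chosen with earlier results of these data known. Alternatives changed the normalization, the probe set rule, the filter, the prior, the arrays and the fold. Replicate numbers did not pair the arrays: same-number correlations were -0.06 to 0.18, and 2 of 12 exceeded 0.1. Promoter windows are RefSeq's. The table held 0 columns of other samples.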

Additional observations from a re-analysis of the deposited data

How the results depend on the processing

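No result reversed. Of 730 values of 35 named results under the alternatives, 610 kept their side of the threshold, 115 lost it and 5 gained it, and 12 of the results changed under none. For WT at day 4, the members higher and lower were 10 and 1 (median 0.11) with arrays centred on their medians. Over all genes these were 1979 and 3196. With all single-symbol probe sets 33 of the members' 108 were higher, beside 2561 of all 23521. From the compared groups alone 9 were higher and 1 lower, beside 1978 and 2119 of all 22180 genes. With quantile normalization 1 was lower, beside 2632 of all genes. The median was 0.20 for core members or without the 9 like genes and 0.22 at levels of 8 or more. For KO at day 4, 1 fell (beside 3682 of all genes) and the median was 0.15 with quantile normalization. The median was 0.05 after centring. With all probe sets 5 of 108 fell, beside 3900 of 23521. For KO against WT at day 0, 0 were lower with averaged probe sets, beside 682 of all genes. With all probe sets 2 of 108 were lower, beside 704 of 23521. Among core members, at levels of 8 or more, or without like genes, 0 were higher. At day 4, 20 of 108 were lower with all probe sets, beside 2807 of 23521, and 7 of these 20 were of Rps12. With a trended robust prior 13 were lower and with array weights 5, beside 2908 and 2933 of all genes. From the compared groups alone 2 were higher and 2 lower, beside 748 and 1175 of all genes. At levels of 8 or more 1 was higher and 5 lower, and 2 were higher without like genes. The interaction gave 1 lower without genes under the 25th percentile, with the trended robust prior and with array weights. Of all genes in these fits 561, 668 and 1024 were lower. At 1.5-fold or more, 0 rose in WT, 1 rose and 1 fell in KO, 0 were higher at day 0, and 0 were higher and 2 lower at day 4; at 2-fold or more, 1 was lower at day 4 and these other counts were 0. Leaving out single arrays gave 7 to 21 higher and 0 to 2 lower in WT, 9 to 16 and 1 to 3 in KO, 0 to 1 and 1 to 1 at day 0, 2 to 7 and 3 to 8 at day 4, and 0 to 1 each way in the interaction. With replicate 1 of WT day 4 and replicate 2 of KO day 4 both left out, 12 rose in WT (17.9%, beside 12.6% of all genes). In that setting 4 were lower at day 4 (5.97%, beside 15.5%), with a median of -0.05. The interaction gave 1 each way (1.49%, beside 5.1% higher and 6.27% lower). The cause of these moves was not tested. With a replicate block 18 rose in WT and 13 in KO, beside 2391 and 2984 of all genes, and no count moved by over 1.5 times. The level limit of 8, the omission of the like genes and that of both arrays were chosen after seeing the data. Signal limits the dim probe sets: 31 members lay under a level of 8.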
